A study of Mus musculus with 22 samples.

Results

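The variable (V) genes of the immunoglobulin loci supplied 96017 counts to the 12 brown adipose tissue (BAT) libraries of an experiment with adeno-associated virus (AAV), and 94.2% of these counts came from the mice that received the control virus. A single mouse among these supplied 51.8% of the 96017 counts. The 172 genes described here are those with a symbol starting with *Ighv*, *Igkv* or *Iglv* whose counts summed to 20 or more over the 12 libraries, out of 348 annotated V genes and 55487 gene identifiers in the table. They were therefore chosen by measured values, and all 172 reached 20 counts in the 6 AAV-GFP libraries alone, whereas 86 did so in the 6 AAV-PRDM16 libraries. They comprised 86 *Ighv* genes of the heavy chain locus, 83 *Igkv* genes of the κ light chain locus and 3 *Iglv* genes of the λ light chain locus. The members nearest above the threshold were *Ighv1-43* with 25 counts and *Ighv8-5* and *Igkv3-3* with 28 each, and the V genes nearest below it were *Ighv11-2* with 19 and *Igkv7-33* with 18. A further 141 V genes had no count in any of the 12 libraries.

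A V gene encodes most of the antigen-binding domain of an antibody chain. During B-cell development 1 heavy chain V gene is joined to D and J segments and 1 light chain V gene to a J segment, and the V exon is then transcribed and spliced to a constant-region gene. Each B-cell clone therefore carries its own V genes, and antibody-secreting plasma cells hold these transcripts at far higher levels than resting B cells. Brown adipocytes do not rearrange these loci, and V transcripts in a tissue sample are known as products of its B-lineage cells.

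CPEB2 is an RNA-binding protein that regulates translation, and PRDM16 is a transcriptional regulator of brown adipocyte identity. BAT was taken from mice labelled male, CPEB2-WT (WT) and CPEB2-KO (KO), on a chow with 9% fat, with 1 library per mouse. In the AAV experiment, mice aged 16 weeks received 20000000000 vector genomes in 30 µl into the interscapular BAT and were sampled 9 weeks later at 25 weeks, with 3 mice of either genotype for a virus expressing GFP (AAV-GFP) and 3 for a virus expressing flag-tagged PRDM16 (AAV-PRDM16). A separate table held 5 WT and 5 KO mice without virus at 21 to 25 weeks. These mice were deprived of food for some hours before sampling, a step not reported for the AAV mice. CPEB2 was deleted in the whole animal, so B-lineage cells of KO mice lacked it as well. AAV mice are named by their label numbers, which recur between genotypes, and untreated mice by replicate number.

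The *Ighv* members lie on chromosome 12 between 113588267 and 116000461, the *Igkv* members on chromosome 6 between 67555497 and 70704177, and the *Iglv* members on chromosome 16 between 19085017 and 19260859 of GRCm38. All have 2 exons, a short leader exon and the V exon. All 86 *Ighv* members are annotated on the minus strand, whereas 32 *Igkv* members are on the plus and 51 on the minus strand. The last 120 bases of 6 transcripts are shown to make clear how alike and how different the counted features are. They are the most abundant member of each locus (*Ighv1-26*, *Igkv10-96*, *Iglv1*) and the 3 members with an adjusted p under 0.05 between the viruses (*Ighv1-22*, *Ighv10-3*, *Igkv1-110*). The sequences are from the GENCODE M21 transcripts and are written 5′ to 3′ on the coding strand, and the capitals mark the codon of the conserved cysteine that ends the framework before the third complementarity-determining region.
Ighv1-26: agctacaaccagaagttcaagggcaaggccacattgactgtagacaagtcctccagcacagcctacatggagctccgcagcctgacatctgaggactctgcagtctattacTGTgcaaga
Ighv1-22: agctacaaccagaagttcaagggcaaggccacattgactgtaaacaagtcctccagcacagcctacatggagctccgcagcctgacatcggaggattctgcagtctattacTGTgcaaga
Ighv10-3: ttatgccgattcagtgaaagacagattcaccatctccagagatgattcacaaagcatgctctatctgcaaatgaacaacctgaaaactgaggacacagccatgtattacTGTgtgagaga
Igkv10-96: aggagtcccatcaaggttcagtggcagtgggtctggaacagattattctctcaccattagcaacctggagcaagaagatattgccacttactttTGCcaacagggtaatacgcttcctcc
Igkv1-110: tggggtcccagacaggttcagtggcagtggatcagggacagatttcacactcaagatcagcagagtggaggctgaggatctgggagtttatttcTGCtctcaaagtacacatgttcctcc
Iglv1: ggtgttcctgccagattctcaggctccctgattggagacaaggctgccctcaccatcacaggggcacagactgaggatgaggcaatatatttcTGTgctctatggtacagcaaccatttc
These stretches are chr12:114788372-114788491, chr12:114746273-114746392 and chr12:114523441-114523560 for the heavy chain genes, chr6:68631963-68632082 and chr16:19085017-19085136 for *Igkv10-96* and *Iglv1*, all on the minus strand, and chr6:68271148-68271267 on the plus strand for *Igkv1-110*. Each is the 3′ part of the V exon, so none includes the rearranged junction. Compared position by position without alignment, the ends of *Ighv1-22* and *Ighv1-26* differed at 3 of 120 bases. Those of *Igkv10-96* and *Igkv1-110* differed at 41. The cysteine codon of *Ighv10-3* lies at another position than that of *Ighv1-26*, so their count of 92 is no measure of likeness.

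The motif TANTNNTGN, which fits a tyrosine codon, a codon starting with T and a cysteine codon in a row, was found on the coding strand in the last 60 bases of 168 of 172 member transcripts, or 97.7%. It was found in 41 of 48 V genes outside the selection that are not annotated as pseudogenes. It was also found in 78 of all 130 annotated V pseudogenes, 2 of which are members, and in 5.99% of all transcripts with a length of 60 bases or more. A match shows only that these letters are present. The same likeness limits the assignment of reads. The longest stretch that a member shared exactly with another V gene had a median of 93 bases, and 72 of 172 members shared 100 or more. *Ighv1-62-2* and *Ighv1-71* shared 351 bases, *Igkv6-20* and *Igkv6-29* shared 253, and *Igkv1-110* and *Igkv1-117* shared 142. The level of a single member is therefore uncertain where reads could be split among copies, whereas an exchange of reads between members leaves a locus sum unchanged.

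The libraries were deep for such low-level genes. Totals ran from 61636889 to 143005309 counts in the AAV libraries and from 55320927 to 162721202 in the untreated libraries, and the V members took from 282 to 49721 counts of an AAV library. Levels are given as CPM, the counts per 1000000 counts of the library size after TMM scaling. A count of 0 in 1 library allows up to 3 counts, which corresponded to between 0.0186 and 0.0596 CPM and covers counting error only. *Prdm16* was at 45.9 to 128 CPM in the AAV-PRDM16 libraries against 23.9 to 40.2 in the AAV-GFP libraries, and *Cpeb2* was at 4.33 to 5.55 CPM in the KO libraries of the AAV experiment against 10.5 to 14.0 in WT. Among untreated mice, the library labelled KO replicate 1 had 11.7 CPM of *Cpeb2*, within the WT range, and 6 of 10 libraries (2 WT and 4 KO) lacked Y-linked transcripts although the labels give males. The brown adipocyte list summed to between 3591 and 6928 CPM in the AAV libraries.

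The summed V level was lower with AAV-PRDM16 than with AAV-GFP in KO mice, without overlap. The 172 members together were at 52.2, 168 and 345 CPM in KO + AAV-GFP mice 57, 64 and 69, and at 9.01, 8.05 and 7.37 CPM in KO + AAV-PRDM16 mice 59, 65 and 76. The lowest KO + AAV-GFP library was thus far above the highest KO + AAV-PRDM16 library, and the KO + AAV-GFP mice differed among themselves more than the KO + AAV-PRDM16 mice did. The group means were 189 ± 148 and 8.14 ± 0.825 CPM (SD, n = 3), a ratio of 23.2, the ratio of the medians was 20.9, and without mouse 69 the ratio of the means was 13.5. By locus, the AAV-GFP and AAV-PRDM16 means were 91.5 ± 69.9 and 3.74 ± 0.435 CPM for *Ighv*, 92.3 ± 73.9 and 4.14 ± 0.194 CPM for *Igkv*, and 4.75 ± 3.85 and 0.264 ± 0.244 CPM for *Iglv* (SD, n = 3). These sums carry no test because the members were chosen with these libraries. In bulk tissue, fewer cells of a type and less RNA per cell cannot be told apart.

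In WT mice the difference had the same direction and the groups overlapped. WT + AAV-GFP mice 56, 65 and 89 had 12.9, 57.4 and 65.2 CPM, and WT + AAV-PRDM16 mice 63, 64 and 80 had 3.30, 29.5 and 3.85 CPM. Mouse 64 of WT + AAV-PRDM16 was above mouse 56 of WT + AAV-GFP. The means were 45.2 ± 28.2 and 12.2 ± 15.0 CPM (SD, n = 3), a ratio of 3.70, and without mouse 64 of WT + AAV-PRDM16 the ratio was 12.6. The *Ighv* means were 21.1 ± 12.9 and 5.67 ± 7.23 CPM, the *Igkv* means 23.0 ± 14.8 and 5.94 ± 7.02 CPM, and the *Iglv* means 1.06 ± 0.543 and 0.610 ± 0.743 CPM (SD, n = 3).

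**Figure D1:**
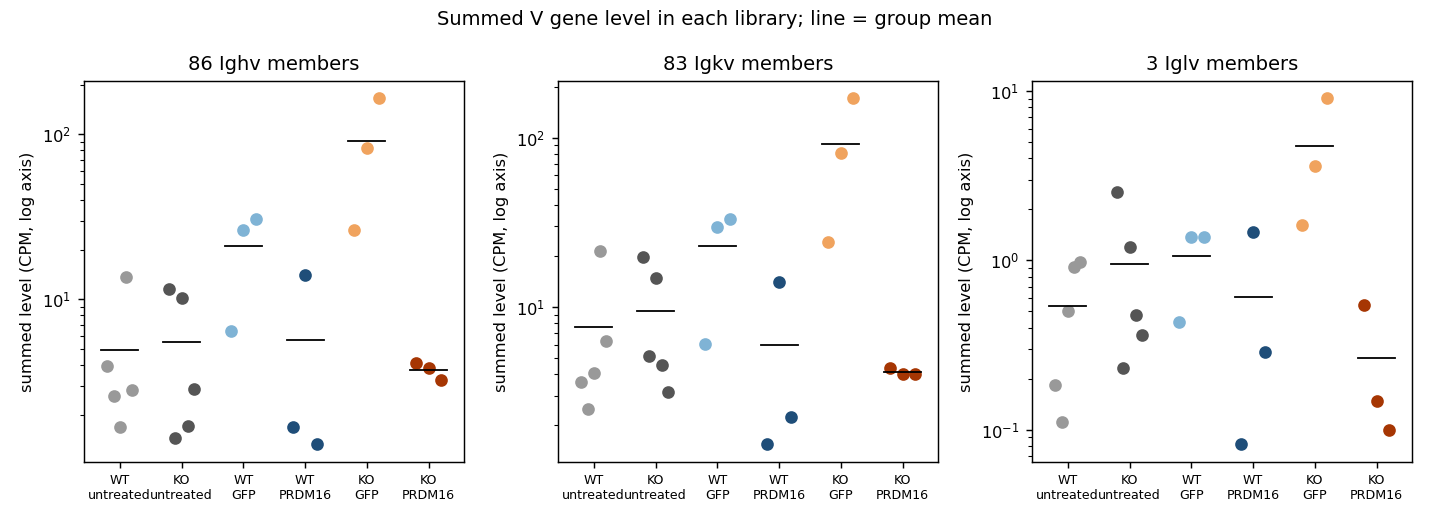
Summed CPM of the *Ighv*, *Igkv* and *Iglv* members on a log axis, with 1 point per library, the 6 groups along the x axis and a line at each group mean. The KO + AAV-GFP points lie above the KO + AAV-PRDM16 points at all 3 loci, whereas the WT groups overlap.

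The untreated mice gave a scale for these levels, read side by side because they are a separate cohort and table, sampled after food deprivation. WT replicates 1 to 5 had 7.74, 5.23, 6.23, 36.1 and 10.1 CPM, and KO replicates 1 to 5 had 33.7, 6.82, 26.2, 6.75 and 6.36 CPM. WT replicate 4 and KO replicates 1 and 3 stood above the other 7 libraries. The means were 13.1 ± 13.0 and 16.0 ± 13.0 CPM (SD, n = 5), a KO to WT ratio of 1.22, which turned to 0.882 without KO replicate 1 and was 2.18 without WT replicate 4. All 3 KO + AAV-PRDM16 libraries lay within the range of the untreated libraries, and all 3 KO + AAV-GFP libraries lay above it. WT + AAV-PRDM16 mice 63 and 80 lay below it and mouse 64 within it, whereas WT + AAV-GFP mouse 56 lay within it and mice 65 and 89 above it.

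Of the 172 members, 169 had a lower mean in KO + AAV-PRDM16 than in KO + AAV-GFP, 1 had a higher mean and 2 were at 0 in both groups. The groups did not overlap for 106 members, all lower with AAV-PRDM16, where the background was 5.70% of the 21984 genes with 20 or more counts. The median log2 ratio was -4.36 over the 169 members with more than 3 counts in a group, with zero groups set at 3 counts over the group, compared with -0.01 over all such genes. Leaving out mouse 69, the library with 51.8% of all member counts, left 162 members lower and 106 without overlap, and leaving out mouse 57 raised the latter to 152. Groups with fewer libraries fail to overlap more often for any gene, so the background does not apply to these leave-out counts. Selection on the same libraries favours genes high in them, so the V genes with 20 or more counts in the untreated table were also taken. There were 136 such genes, all of them members, and all 136 were lower with AAV-PRDM16 in KO mice, 94 of them without overlap. In WT mice 123 of the 136 were lower and 13 higher, with 19 lower without overlap beside a background of 7.36%. Over both genotypes all 136 were lower, with 12 lower without overlap beside a background of 0.428%. Mouse 69 held the highest level of most members, so the members were not independent of each other. Here and below, counts of members are therefore not counts of separate observations, since they rest on the same few mice. The background is a share of single genes and cannot show how often genes that vary together would reach such counts.

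In WT mice 151 members had a lower mean with AAV-PRDM16, 17 a higher mean, and 22 were lower without overlap, beside a background of 7.36%. The median log2 ratio was -1.88 over 164 members. Without mouse 64 of WT + AAV-PRDM16, 164 members were lower and 69 were lower without overlap, and without mouse 56 of WT + AAV-GFP the latter count was 77. Over both genotypes, 171 members were lower in the 6 AAV-PRDM16 libraries and 15 were lower without overlap, beside a background of 0.428%. Without mouse 56 of WT + AAV-GFP 50 members were lower without overlap. The backgrounds do not apply to the counts with a library left out.

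**Figure D2:**
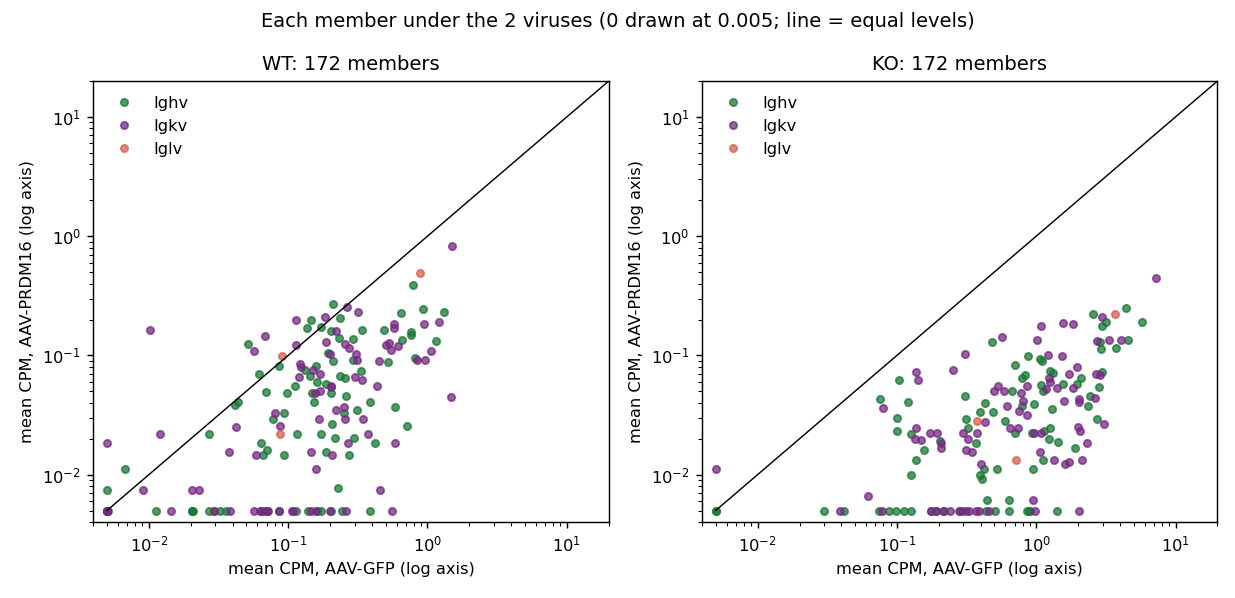
Mean CPM of each of the 172 members with AAV-GFP (x axis) and AAV-PRDM16 (y axis), both on log axes, in WT (left) and KO mice (right), coloured by locus; members at 0 are drawn at 0.005 CPM and the line marks equal levels. In KO mice 169 members lie below the line, and in WT mice 151 do.

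The fit across all 18899 genes tested called few members. Of the 172 members, 142 passed the filter on low counts. Over both genotypes, 3 members were called lower with AAV-PRDM16 at an adjusted p of 0.05 (edgeR's quasi-likelihood test), of 7 genes called in all, a background of 0.037%. At an unadjusted p under 0.05, 119 members were lower and the background was 7.02%. In KO mice no member was called by edgeR, and no other gene was, a background of 0%. At an unadjusted p under 0.05, 119 members were lower in KO mice beside a background of 5.10%, and DESeq2 called 53 members. In WT mice edgeR called no member and no other gene, again a background of 0%. At an unadjusted p under 0.05, 42 members were lower in WT mice beside a background of 5.19%, 1 was higher, and DESeq2 called 8. The smallest p belonged to *Igkv1-110*, *Ighv10-3* and *Ighv1-81* in KO mice (edgeR adjusted p = 0.307 for each) and to *Ighv1-22*, *Ighv10-3* and *Igkv2-137* in WT mice (edgeR adjusted p from 0.342 to 0.459). Members that passed the filter did so largely through the AAV-GFP libraries, so these counts are descriptive. The 3 calls over both genotypes were lost in 10 of 12 fits that left out 1 library, rose to 31 without mouse 57 of KO + AAV-GFP and to 40 without mouse 56 of WT + AAV-GFP, and were 67 with DESeq2. Counts from DESeq2 and from fits with a library left out, here and below, have no background beside them and are descriptive only.

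*Igkv1-110*, a κ gene, was the called member with the most counts. It was at 0.583, 1.02 and 1.58 CPM in WT + AAV-GFP mice 56, 65 and 89, at 1.45, 3.91 and 6.76 CPM in KO + AAV-GFP mice 57, 64 and 69, at 0, 0.155 and 0.174 CPM in WT + AAV-PRDM16 mice 63, 64 and 80, and at 0.129, 0.111 and 0.167 CPM in KO + AAV-PRDM16 mice 59, 65 and 76. No AAV-PRDM16 library reached the lowest AAV-GFP library. Its log2 fold change (log2FC) over both genotypes was -4.08 ± 0.57 (SE, edgeR adjusted p = 0.0453), with -3.24 ± 0.78 in WT and -4.91 ± 0.82 in KO mice. Most fits that left out 1 library called no member, so this call is descriptive only. The gene was also chosen on counts from these same libraries.

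*Ighv1-22*, a heavy chain gene of the large *Ighv1* family, was at 0.179, 0.298 and 0.685 CPM in WT + AAV-GFP and at 0.521, 0.718 and 1.12 CPM in KO + AAV-GFP. It was at 0 in all 3 WT + AAV-PRDM16 libraries and at 0.0297, 0.0833 and 0 CPM in KO + AAV-PRDM16. Its counts in WT mice were 154 with AAV-GFP and 0 with AAV-PRDM16, at least 36.1-fold lower with 3 counts over the group as the floor. The edgeR log2FC over both genotypes was -6.29 ± 0.82 (SE, adjusted p = 0.0453). As *Ighv1-22* passed the filter through the AAV-GFP libraries, this call adds no support.

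*Ighv10-3*, from another heavy chain family, had no count in any AAV-PRDM16 library. The AAV-GFP libraries held 22, 8 and 47 counts in WT mice 56, 65 and 89 and 36, 100 and 177 counts in KO mice 57, 64 and 69, in all 390. This was at least 99.7-fold lower with AAV-PRDM16 at the same floor. It passed the filter through the AAV-GFP libraries alone, so its call adds no support, and its fitted log2FC depends on the prior count. In all, 19 members were at 0 in all 6 AAV-PRDM16 libraries, with lower bounds of the fold between 5.78 and 99.7.

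The 12 most abundant members were *Igkv10-96*, *Ighv1-26*, *Ighv3-6*, *Ighv1-81*, *Igkv1-110*, *Iglv1*, *Ighv1-64*, *Igkv1-117*, *Ighv9-3*, *Igkv5-43*, *Ighv1-53* and *Ighv1-55*. Their mean over the AAV libraries ran from 2.52 CPM for *Igkv10-96* to 0.947 CPM for *Ighv1-55*, or from 7.01 to 2.28 CPM per kilobase of exon, the scale on which levels of different genes can be set side by side. On that scale *Ighv1-55* ranked 21 among the members, and the ranking by mean CPM weights mouse 69 most. In KO mice the groups did not overlap for any of the 12, beside a background of 5.70%. Their log2FC lay between -5.16 and -3.50, and none was called (edgeR adjusted p from 0.307 to 0.676). In WT mice 3 of the 12 did not overlap, beside a background of 7.36%, with log2FC between -3.24 and -0.85 (edgeR adjusted p from 0.459 to 0.920). The 12 were ranked on these same libraries, which favours genes high with AAV-GFP, so these counts are descriptive.

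*Igkv10-96* was the most abundant *Igkv* member in 11 of 22 libraries. It was at 0.592, 1.59 and 2.30 CPM in WT + AAV-GFP, at 0.117, 1.89 and 0.482 CPM in WT + AAV-PRDM16, at 1.48, 8.32 and 12.1 CPM in KO + AAV-GFP and at 0.406, 0.426 and 0.518 CPM in KO + AAV-PRDM16. In WT mice the high value of mouse 64 with AAV-PRDM16 fell among those with AAV-GFP, whereas the KO groups were apart. *Ighv1-26* was the most abundant *Ighv* member in 7 of 22 libraries. It was at 0.126, 1.48 and 2.32 CPM in WT + AAV-GFP, at 0.0468, 0.542 and 0.106 CPM in WT + AAV-PRDM16, at 2.12, 3.91 and 11.1 CPM in KO + AAV-GFP and at 0.0694, 0.4996 and 0 CPM in KO + AAV-PRDM16. *Iglv1*, which was the most abundant λ member in 21 of 22 libraries, was at 0.242, 1.28 and 1.11 CPM in WT + AAV-GFP and at 0.0819, 1.10 and 0.289 CPM in WT + AAV-PRDM16. In KO mice it was at 1.16, 2.79 and 7.02 CPM with AAV-GFP and at 0.476, 0.0925 and 0.1002 CPM with AAV-PRDM16. The KO groups were apart for *Iglv1* and the WT groups overlapped. κ counts made up 86.6% to 97.6% of light chain V counts over the 22 libraries.

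**Figure D3:**
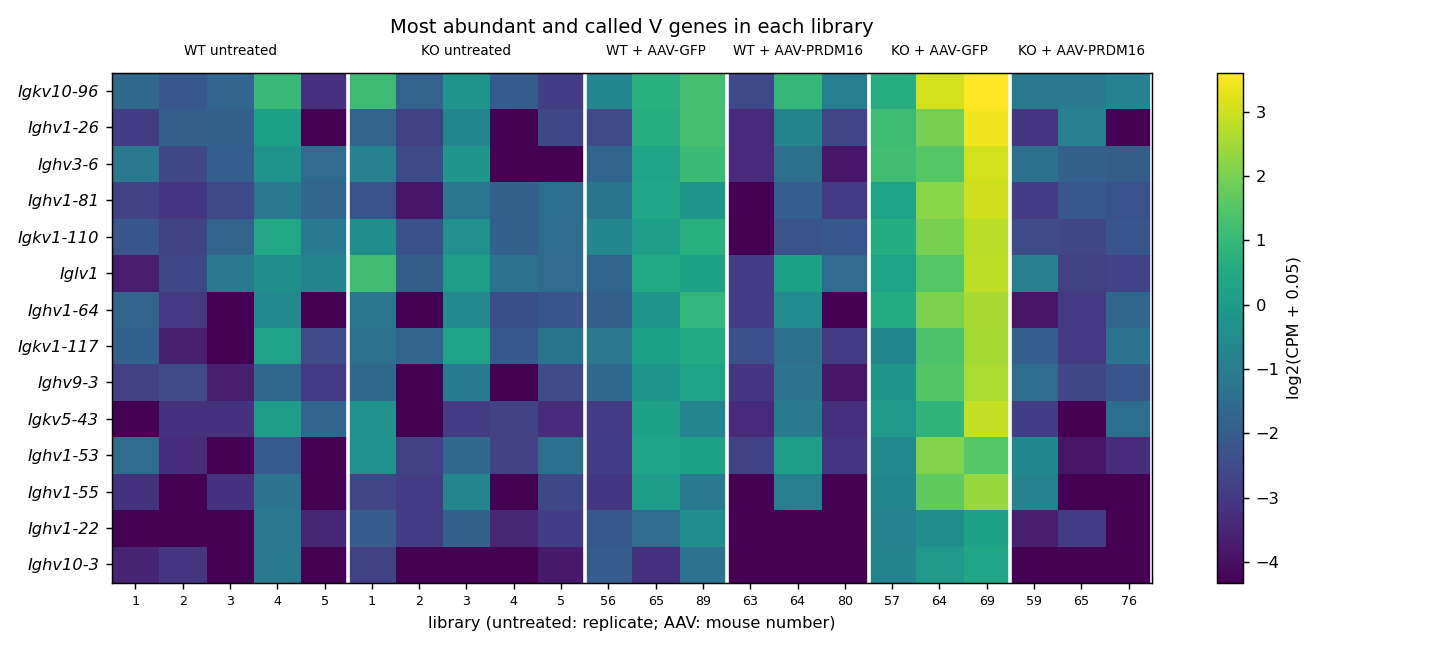
Level of the 12 most abundant members and of the called members *Ighv1-22* and *Ighv10-3* in each of 22 libraries, as log2(CPM + 0.05), with libraries grouped by condition. The KO + AAV-GFP columns are the brightest in most rows and mouse 69 is the highest of them for most members, at 12.1 CPM for *Igkv10-96*.

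The members were spread over many genes in each library. No *Ighv* member took more than 19.8% of a library's *Ighv* counts and no *Igkv* member more than 21.6% of its *Igkv* counts, and the leading genes differed between mice. Besides *Ighv1-26*, the leading *Ighv* member was *Ighv3-6* in 4 libraries, *Ighv1-53* in 3, *Ighv1-81* in 2, and *Ighv1-12*, *Ighv1-39*, *Ighv1-42*, *Ighv1-47*, *Ighv1-76* or *Ighv5-4* in 1 each. Besides *Igkv10-96*, the leading *Igkv* member was *Igkv3-4* in 2 libraries and *Igkv1-117*, *Igkv16-104*, *Igkv3-10*, *Igkv4-57*, *Igkv4-59*, *Igkv4-91*, *Igkv6-17*, *Igkv6-32* or *Igkv8-30* in 1 each. Mouse 69 held the highest level of most members, mouse 64 of KO + AAV-GFP that of 26, mouse 89 of WT + AAV-GFP that of 10 and mouse 65 that of 7.

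The number of members with a count was 105, 151 and 145 in WT + AAV-GFP mice 56, 65 and 89, and 139, 162 and 167 in KO + AAV-GFP mice 57, 64 and 69. It was 42, 123 and 44 in WT + AAV-PRDM16 mice 63, 64 and 80, and 86, 88 and 60 in KO + AAV-PRDM16 mice 59, 65 and 76. To take out the number of V counts, the expected number of different members among 80 counts drawn from each library was computed. For *Ighv* it was 36.1 to 39.0 in the 6 AAV-GFP libraries and 20.5 to 36.3 in the 6 AAV-PRDM16 libraries. For *Igkv* it was 32.4 to 39.5 and 17.8 to 35.7. WT + AAV-PRDM16 mouse 64 gave the upper end of both AAV-PRDM16 ranges. Untreated libraries spanned 15.0 to 38.4 for *Ighv* and 21.7 to 37.5 for *Igkv*. Libraries with few V counts thus tended to hold fewer V genes even among an equal number of counts, with exceptions. For *Ighv*, WT + AAV-GFP mouse 56 gave 37.2 on 1444 V counts, above the 36.1 of KO + AAV-GFP mouse 57 on 3502. Reads are not independent molecules, and several reads can come from 1 cell.

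**Figure D4:**
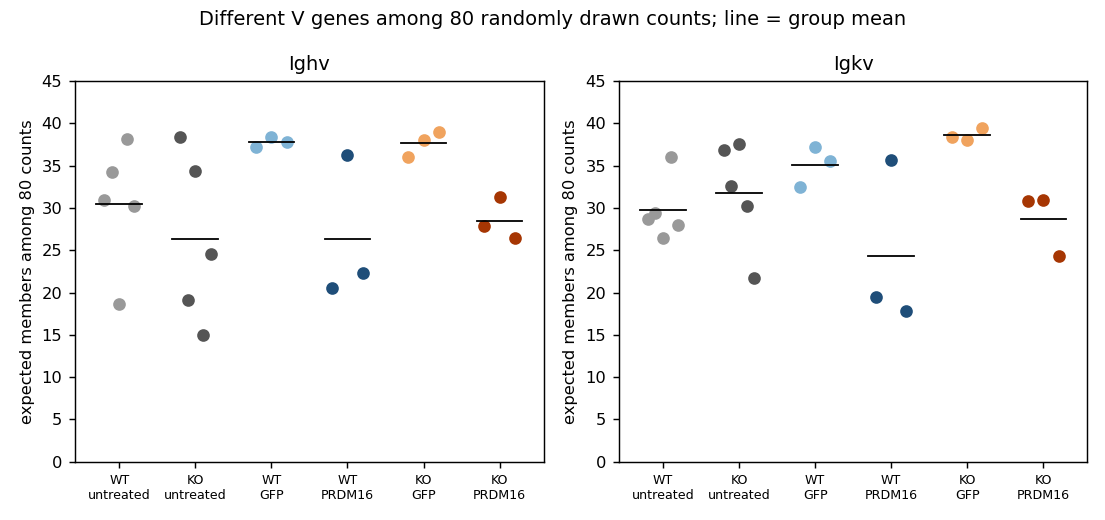
Expected number of different *Ighv* (left) and *Igkv* (right) members among 80 counts drawn from each library, with 1 point per library and a line at each group mean. AAV-GFP libraries lie between 36.1 and 39.0 for *Ighv*, and the AAV-PRDM16 libraries reach down to 20.5.

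The V genes fall into families by sequence, and the shares of the larger families are given without a test. The *Ighv1* family, 48 members, took 64.3% of *Ighv* counts with AAV-GFP, 65.3% with AAV-PRDM16 and 60.5% in untreated mice, and *Ighv5* took 8.01%, 7.81% and 7.38%. *Igkv4*, with 21 members, took 16.7%, 16.6% and 18.0% of *Igkv* counts, and *Igkv10*, with 3 members, took 10.4%, 14.9% and 10.54%. Within genotypes the shares of *Igkv4* differed in opposite directions, from 10.7% with AAV-GFP to 19.3% with AAV-PRDM16 in WT mice and from 18.4% to 12.53% in KO mice. The share of *Igkv10* was 8.93% and 17.0% in WT mice and 10.8% and 11.8% in KO mice. These shares come from pooled counts, in which mouse 69 held 51.8% of all member counts and WT + AAV-PRDM16 mouse 64 held 2668 of the 5569 counts with AAV-PRDM16. The mean levels of members in AAV-GFP and untreated libraries had a Spearman's rho of 0.87 over the 86 *Ighv* and 0.86 over the 83 *Igkv* members, and those in AAV-GFP and AAV-PRDM16 libraries 0.74 and 0.76. Between single AAV-GFP libraries rho was lower, with medians of 0.55 and 0.54 and a lowest value of 0.38. These values are across genes, which are not independent, and they share gene length and read assignment.

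Position along the locus was read as the distance to the J segments, to which V genes are joined. The *Ighv* members lay 158 to 2570 kb and the *Igkv* members 18.4 to 3166 kb from the J segments of their locus. The members nearer than the median distance held 42.5% to 53.1% of *Ighv* counts in the AAV-GFP libraries and 30.7% to 52.4% in the AAV-PRDM16 libraries. For *Igkv* they held 34.7% to 56.1% and 35.8% to 55.3%. The ranges overlapped at both loci.

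Between genotypes, the V sum under AAV-GFP was higher in KO than in WT mice by a ratio of 4.17 of the means, and the groups overlapped because KO mouse 57 (52.2 CPM) was below WT mice 65 and 89. The *Iglv* sums alone did not overlap, at a ratio of 4.49. The ratio of the medians was 2.93, and without KO mouse 69 the ratio of the means was 2.44. Of the members, 160 had a higher mean in KO mice and 40 were higher without overlap, beside a background of 6.15%. Without KO mouse 69, 135 members were higher and 36 lower. Without KO mouse 57 the members higher without overlap numbered 112, a count to which that background does not apply. No member was called by edgeR, beside a background of 0.0529% for all genes. At an unadjusted p under 0.05, 50 members were higher beside a background of 4.98%, and DESeq2 called 1. The smallest p belonged to *Igkv3-7* (log2FC 4.24 ± 1.12 SE, edgeR adjusted p = 0.295), *Ighv1-59* (3.65 ± 0.97 SE, adjusted p = 0.308) and *Igkv14-111* (3.09 ± 0.87 SE, adjusted p = 0.308). *Igkv3-7* was at 0.0717, 0.0542 and 0 CPM in WT + AAV-GFP and at 0.328, 0.888 and 1.20 CPM in KO + AAV-GFP, without overlap. Under AAV-GFP, 8 of 9 macrophage genes and none of 13 T-cell genes were also higher in KO mice at an unadjusted p under 0.05, and their part in the V levels was not tested.

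Under AAV-PRDM16 the direction was divided, with 68 members higher in KO and 85 lower, and the V sum of KO mice was 0.666 of that of WT mice. Without WT mouse 64, 113 members were higher and 31 lower, and the ratio of the sums was 2.28. The members lower without overlap numbered 3, beside a background of 10.2%. edgeR called no member beside a background of 0.0476%. At an unadjusted p under 0.05, 2 members were higher beside a background of 6.92% and 6 were lower beside a background of 6.80%, and DESeq2 called none. *Ighv1-22* had the smallest p (edgeR adjusted p = 0.221), on 0 counts in WT and 12 in KO mice.

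Whether the effect of the virus differed between genotypes was tested as an interaction. The members' median interaction was -2.34 on the log2 scale, that is, a larger difference in KO mice. It rested on WT + AAV-PRDM16 mouse 64, without which it was -0.23. edgeR called no member and no gene, a background of 0%, and the smallest p belonged to *Igkv5-48* (log2 difference of -6.04, adjusted p = 0.9998), followed by *Igkv4-80* and *Igkv6-20*. At an unadjusted p under 0.05 there were 31 members with a negative interaction, beside a background of 1.60%, and 2 with a positive one, of which *Ighv1-22* was 1, and DESeq2 called none. A larger effect in KO than in WT mice was therefore not shown for any single member.

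In untreated mice 102 members had a higher and 66 a lower mean in KO mice, and none was higher without overlap, beside a background of 0.470%. edgeR tested 33 members and called none, beside a background of 0%. None was under an unadjusted p of 0.05, and DESeq2 called none. The direction depended on single libraries: without KO replicate 1 the count was 71 higher and 91 lower, and without WT replicate 4 it was 129 higher and 36 lower. The 3 smallest p belonged to *Igkv4-57*, *Iglv1* and *Ighv1-53*, with log2FC of 1.43 ± 0.90, 1.19 ± 0.85 and 1.51 ± 1.08 (SE, edgeR adjusted p from 0.397 to 0.449). Untreated genotype and the absence of Y-linked transcripts partly coincide, and adding the latter as a covariate left no member called.

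V exons are spliced to constant-region genes, of which *Igha* and *Igkc* followed the V sum in the AAV libraries and *Ighm* did not. *Igha*, the heavy chain of IgA, was at 12.6, 55.5 and 56.3 CPM in WT + AAV-GFP mice 56, 65 and 89 and at 2.36, 36.5 and 3.04 CPM in WT + AAV-PRDM16 mice 63, 64 and 80. In KO mice it was at 52.8, 161 and 405 CPM with AAV-GFP and at 7.88, 6.25 and 6.72 CPM with AAV-PRDM16. The WT groups overlapped through mouse 64, and the KO groups did not. Divided by the V sum of the same library, *Igha* stayed between 0.716 and 1.24 over the 12 AAV libraries, while the V sum itself spanned 105-fold. *Igkc*, the κ constant region, stayed between 0.498 and 0.862, and *Jchain*, which links IgA and IgM into polymers, between 0.291 and 0.482. The untreated libraries spread more widely, from 0.690 to 2.27 for *Igha*, 0.551 to 2.12 for *Igkc* and 0.165 to 0.671 for *Jchain*, over a V sum that spanned 6.89-fold. *Ighm*, the heavy chain of IgM, ran from 0.0686 to 3.81 of the V sum in the AAV libraries. It was at 17.2, 35.2 and 40.1 CPM in WT + AAV-GFP, at 4.02, 24.7 and 14.7 CPM in WT + AAV-PRDM16, at 9.39, 11.5 and 26.4 CPM in KO + AAV-GFP and at 5.41, 8.36 and 6.53 CPM in KO + AAV-PRDM16.

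**Figure D5:**
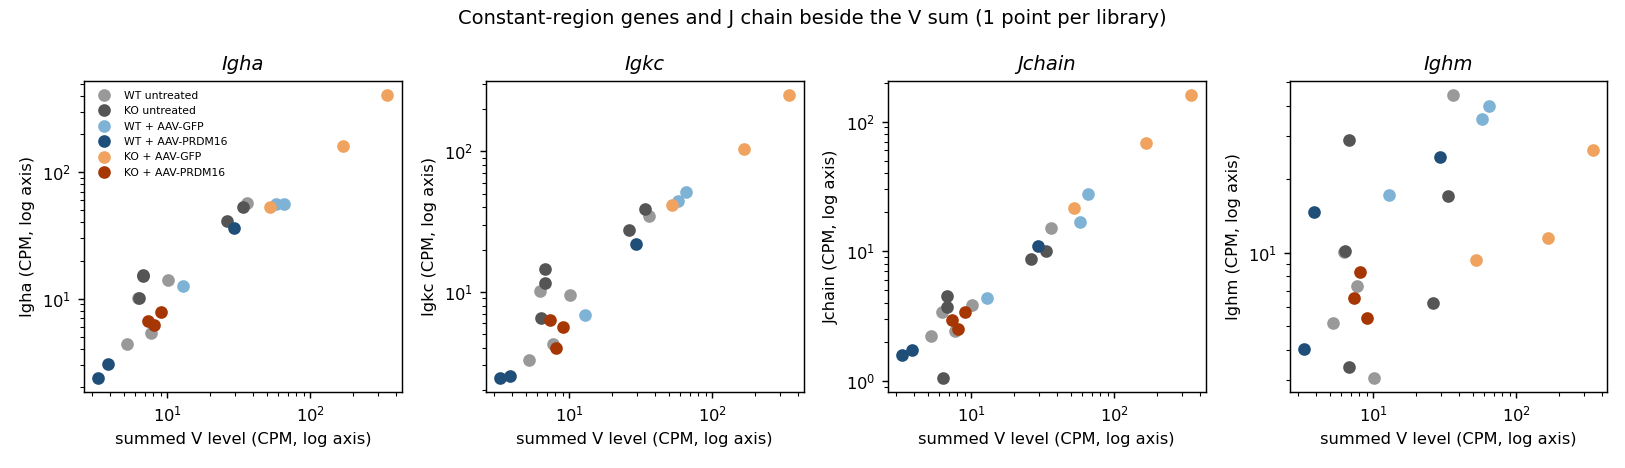
*Igha*, *Igkc*, *Jchain* and *Ighm* in CPM against the summed V level, both on log axes, with 1 point per library coloured by group. *Igha*, *Igkc* and *Jchain* line up with the V sum over its 105-fold range in the AAV libraries, and *Ighm* scatters.

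On the per-kilobase scale *Igha* made up 68.6% to 75.9% of heavy constant-region level in KO + AAV-GFP, 30.6% to 44.2% in KO + AAV-PRDM16, 32.6% to 43.7% in WT + AAV-GFP and 11.7% to 47.6% in WT + AAV-PRDM16. The IgG genes together made up 13.5% to 18.5% in KO + AAV-GFP, 6.37% to 18.2% in KO + AAV-PRDM16, 4.13% to 16.9% in WT + AAV-GFP and 5.08% to 7.07% in WT + AAV-PRDM16, and the ranges overlapped in both genotypes. *Ighg2c*, an IgG2 heavy chain, was at 4.34, 12.6 and 33.9 CPM in KO + AAV-GFP and at 0.456, 0.287 and 1.52 CPM in KO + AAV-PRDM16, and *Ighg2b* was at 1.34, 12.9 and 18.9 CPM and at 0.218, 1.06 and 0.752 CPM. *Ighe* had no count in any library, and *Ighg3*, *Ighg1* and *Ighd* stayed at or below 0.693, 2.98 and 1.61 CPM. None of the heavy or light constant genes was called over both genotypes. *Igkc* had a log2FC of -3.29 (adjusted p = 0.0586), *Ighg2c* of -3.63 (adjusted p = 0.0586), *Igha* of -3.23 (adjusted p = 0.0706), *Ighg2b* of -3.26 (adjusted p = 0.0872) and *Ighm* of -1.16 (adjusted p = 0.271) in edgeR.

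Among genes of antibody-secreting cells, *Jchain* had a log2FC of -3.30 over both genotypes (edgeR adjusted p = 0.0527), and 5 of 11 plasma cell genes tested were lower and none higher at an unadjusted p under 0.05, where 7.02% of all genes were lower. The median log2FC of the 11 genes was only -0.52. In WT mice 1 of the 11 was lower and 1 higher at that threshold, beside backgrounds of 5.19% and 2.10%. In KO mice 4 were lower and none higher, beside backgrounds of 5.10% and 1.31%. *Jchain* was at 4.38, 16.7 and 27.8 CPM in WT + AAV-GFP, at 1.59, 10.9 and 1.72 CPM in WT + AAV-PRDM16, at 21.7, 68.4 and 160 CPM in KO + AAV-GFP and at 3.38, 2.52 and 2.94 CPM in KO + AAV-PRDM16. The plasma cell list of 12 genes summed to 64.9 to 216 CPM in KO + AAV-GFP, 43.5 to 51.0 in KO + AAV-PRDM16, 47.1 to 87.6 in WT + AAV-GFP and 42.2 to 48.3 in WT + AAV-PRDM16, and *Xbp1*, a transcription factor of secretory cells that other cells also express, was at 22.8 to 38.5 CPM in all of them. *Mzb1*, a chaperone of antibody secretion, was at 0.209, 0.485 and 1.17 CPM in KO + AAV-GFP and at 0, 0 and 0.0835 CPM in KO + AAV-PRDM16. The sum of 15 B-cell genes was 2.46 to 8.89 CPM in KO + AAV-GFP, 1.79 to 2.89 in KO + AAV-PRDM16, 2.04 to 3.39 in WT + AAV-GFP and 1.32 to 2.56 in WT + AAV-PRDM16, and 4 of 13 tested were lower at an unadjusted p under 0.05. *Cd79a*, a subunit of the B-cell receptor, did not exceed 1.29 CPM in the AAV libraries.

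Markers of T cells and macrophages were also lower with AAV-PRDM16, at an unadjusted p, whereas other lists differed. The sum of 13 T-cell genes was 11.1 to 41.9 CPM in KO + AAV-GFP and 1.05 to 3.01 in KO + AAV-PRDM16, and 2.54 to 29.7 in WT + AAV-GFP and 1.76 to 2.40 in WT + AAV-PRDM16. All 13 were lower at an unadjusted p under 0.05 over both genotypes, where 7.02% of all genes were lower and 2.07% higher, and none was called. WT + AAV-PRDM16 mouse 64, with 29.5 CPM of V genes, thus had no more than 2.40 CPM of T-cell genes. The sum of 9 macrophage genes was 155 to 402 CPM in KO + AAV-GFP, 80.7 to 103 in KO + AAV-PRDM16, 63.4 to 139 in WT + AAV-GFP and 45.9 to 58.2 in WT + AAV-PRDM16, and 8 of 9 were lower at an unadjusted p under 0.05. Of 7 antibody receptor and transport genes tested, 6 were lower at that threshold, as was 1 of 4 germinal centre genes, and none of 5 survival ligands of B cells and plasma cells was. The germinal centre count is a single gene. In the brown adipocyte list 1 of 8 genes was higher and none lower. The 6 matched lymph node genes summed to 0.278 to 0.752 CPM in the AAV libraries and to 0.182 to 2.33 CPM in the untreated libraries. Of these, *Ccl19*, *Glycam1* and *Chst4* had no count in any of the 22 libraries, and *Rgs13*, a germinal centre gene, had none either. The recombination and precursor genes *Rag2*, *Vpreb2* and *Igll1* had none in the 12 AAV libraries, and their list of 7 summed to at most 0.298 CPM there, with 1 gene tested and not under that threshold. None of 3 lymph node genes tested was under it either. The part of these cells in the V levels was not tested.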

How the data were processed

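Members, gene lists and comparisons were chosen with earlier results of these data known. The authors deposited, for each cohort, a table of whole-number read counts on Ensembl gene identifiers without normalization. The submitters' processing notes name bcl2fastq 2.20, Trimmomatic 0.36, HISAT2 and GRCm38.p6; the counting tool, the read length and the handling of strand, multi-mapping reads and duplicates are not given in the sources used here. GENCODE M21 gave symbols to 55227 of 55487 identifiers.

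Counts were fitted with edgeR 4.0.16 in R 4.3.3 (filterByExpr, TMM scaling, quasi-likelihood test, two-sided, Benjamini-Hochberg adjustment over all genes tested). One fit held the 12 AAV libraries (18899 genes) and another the 10 untreated libraries (17869 genes). The fits were tested on simulated data. CPM were computed from these effective library sizes. Sums over members carry no test. Libraries of a group differed beyond counting noise, and none was taken as a duplicate. Named members are the 12 most abundant, the leading gene of each library and locus, the called members or the 3 with the smallest p in a comparison, and those nearest the threshold; pairs with long shared stretches were named after their values were seen. Results were recomputed with RLE scaling, with DESeq2 1.42.0, without the filter, with only the groups compared, with a replicate block, each library left out, other member thresholds and, chosen after seeing the data, a covariate for Y-linked transcripts and the member directions and the genotype ratios of the V sums with each library left out.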

Additional observations from a re-analysis of the deposited data

Results flagged for a closer look

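In groups of 5 untreated mice, 44 sets of values were examined for a mouse far from the others, of which chance flags about 1 in 20, and 19 stood out. WT replicate 4 was far above the other WT mice for the summed V genes (36.1 CPM), the *Ighv* sum (13.7 CPM) and the *Igkv* sum (21.4 CPM). The same mouse stood out for *Igkv10-96* (1.96 CPM), *Ighv1-26* (1.08 CPM), *Igkv1-110* (1.31 CPM), *Igkv1-117* (1.15 CPM), *Igkv5-43* (1.04 CPM), *Ighv1-55* (0.351 CPM), *Ighv1-22* (0.413 CPM) and *Ighv10-3* (0.436 CPM). It also stood out for *Igha* (56.9 CPM), *Ighm* (44.3 CPM), *Igkc* (34.7 CPM) and *Jchain* (15.2 CPM). Among KO mice, replicate 3 was far above the others for *Igkv1-117* (1.13 CPM) and *Ighv1-55* (0.553 CPM), and replicate 1 for *Igkv5-43* (0.797 CPM) and *Ighv10-3* (0.0972 CPM). The last value rests on 10 counts, where KO replicates 2 to 5 had 0, 0, 0 and 2, within the 3 counts that a 0 allows. These values come from few libraries and are not independent of each other.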

How the results depend on the processing

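Single V genes were called or not depending on the method. Over both genotypes 3 members were called with edgeR, 67 with DESeq2, 12 with RLE scaling, 21 without the filter on low counts and 0 to 40 when each library was left out. In KO mice 53 were called with DESeq2 and 0 to 2 with a library left out, the 2 without WT + AAV-PRDM16 mouse 63. DESeq2 called 8 in WT mice and 1 between genotypes under AAV-GFP. The cause was not tested, and the shares of all genes called in these other fits are not given here. The log2 ratio of the V sums stayed between -4.98 and -3.76 in KO mice with each library left out, against -4.53. In WT mice it was -1.89, between -3.66 and -1.44, with the -3.66 without AAV-PRDM16 mouse 64. In untreated mice it was 0.29, between -0.18 and 1.12, and reversed to -0.18 without KO replicate 1. RLE scaling, other library totals, other thresholds and removal of each library's leading genes kept these sums within the spread between mice. Replicate numbers recur between groups. Same-numbered libraries did not deviate together (correlations from -0.09 to 0.15 in the AAV and -0.29 to 0.11 in the untreated libraries), so the numbers were not taken as pairs; with a replicate block 2 members were called over both genotypes and 0 in each other comparison. At 0 counts a library allows up to 3, and 19 members were at 0 in all AAV-PRDM16 libraries.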
